A study of Mus musculus with 23 samples.

Results

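The genes examined here were 10 members of the amino acid deprivation response, measured in the whole brain of adult mice whose mothers ate different diets. They were the transcription factor genes Atf4 and Ddit3, the feedback inhibitor Trib3, the enzyme genes Asns and Chac1, the growth regulators Sesn2 and Ddit4, and the serine synthesis genes Phgdh, Psat1 and Psph. Members were chosen by gene symbol, and every probe annotated with 1 of the 10 symbols was taken. This gave 14 of the 39429 probes of the array, for 10 of its 31829 gene names or accessions, with 2 probes each for Atf4, Phgdh, Psat1 and Psph. Embryos made by in vitro fertilization from C57BL/6J eggs and sperm were transferred to ICR females, an outbred stock, that ate a control diet (CD group, 20% casein and 0.02% folic acid), a protein-restricted diet (PR group, 5% casein and 0.02% folic acid) or a protein-restricted diet with more folic acid (FA group, 5% casein and 0.1% folic acid). Recipients started their diet 1 month before the transfer and kept it until delivery by caesarean section. The male pups were then raised by ICR foster mothers and weaned onto the control diet. The study's text gives the diet of these foster mothers in more than 1 way, as the control diet and as each of the 3 diets, so a difference between groups may also hold the diet of the foster mother. Whole brains, cerebrum and cerebellum together, were taken from males at 19 weeks of age after a course of behavioural tests, and 4 brains per group were hybridised, 1 per array.

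A shortage of any amino acid leaves transfer RNAs uncharged. Uncharged transfer RNA activates the kinase GCN2, which phosphorylates the initiation factor eIF2 alpha, slows general translation and favours translation of the Atf4 messenger. ATF4 protein then binds C/EBP-ATF response elements and raises genes for amino acid synthesis and transport, while the nutrient sensor mTORC1 is inhibited by a parallel route through Sestrins and REDD1, the product of Ddit4. In brain, serine made by PHGDH, PSAT1 and PSPH in astrocytes is a precursor of the co-agonist D-serine and of membrane lipids.

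The core of the C/EBP-ATF response element, searched as TGATGNAA on both strands, was found in the RefSeq promoter windows (GRCm38.p6, from 250 bases before to 50 after the start site) of 3 of the 10 members, and in 3 of their 11 windows. The same letters were present in 1304 of 32851 windows of all genes, or 3.97%. The matches are shown because the motif is the DNA element through which ATF4 reaches its targets, and the results of these 3 genes are set beside each other below. The sequences run 5′ to 3′ on the strand of the gene, and capitals mark the motif, which lies in reverse orientation in Chac1 and Trib3. They were chr2:119351038-119351067 on the + strand for Chac1, chr2:152344028-152344057 on the − strand for Trib3 and chr6:7693214-7693243 on the − strand for Asns.
Chac1: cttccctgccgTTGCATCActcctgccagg
Trib3: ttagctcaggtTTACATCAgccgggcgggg
Asns: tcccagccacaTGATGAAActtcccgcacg
Counted from the start site, the first motif base lay at -193 in Chac1, at -23 in Asns and at base 15 of the transcript in Trib3.

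All 14 probes were well above background on all 12 arrays, none was saturated, and none carried an outlier spot on any array. Levels are given as log2 of the deposited intensity, which the authors had normalized between arrays, and a difference of 1 on this scale is a doubling. The arrays of the PR group had 31266 to 33478 spots well above background and those of the FA group 30408 to 31672, against 27068 to 28458 in the CD group. Each group was hybridised on a slide of its own, scanned on its own, and in no value below can diet be told apart from slide. The labels do not say whether the mice of a group shared a mother, so p-values measure the spread between these samples only. Markers of neurons, astrocytes and oligodendrocytes were well above background on all arrays, as the label of whole brain requires, except that the neuron marker Rbfox3 was not matched on the array. Because the tissue is bulk brain, fewer cells of a type and less RNA per cell cannot be told apart.

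In the PR group, 4 of the 14 probes differed from the CD group by limma's moderated test (adjusted p under 0.05 after Benjamini-Hochberg adjustment over all probes). One probe each of Atf4, Chac1 and Phgdh rose and Sesn2 fell. Of all probes of the array, 30.0% passed the same test, 13.4% higher and 16.6% lower, so the share of member probes called, 28.6%, was near that of the array. In the FA group, 7 of the 14 probes, from 6 genes, differed from the CD group. Here 1 probe of Atf4, both probes of Phgdh, Trib3 and Chac1 rose, and Sesn2 and Ddit4 fell. Of all probes, 34.4% passed in this comparison, 16.4% higher and 18.0% lower. All probes include dim ones, while all 14 member probes were well above background. Among the 27489 probes left without dim ones, 30.9% passed in PR and 37.9% in FA. Of these calls, 55.5% and 56.4% were higher. The arrays did not overlap with CD for 3 member probes in PR and for 7 in FA, where 33.2% and 36.9% of all probes did not overlap. The median difference of the member probes was 0.081 in PR against CD and 0.12 in FA against CD, where the medians of all probes were -0.016 and -0.0061. In absolute size, the median difference was 0.141 and 0.173 for the members against 0.205 and 0.221 for all probes. No member differed by 2-fold in either comparison. The comparisons share the CD arrays, so their values are set side by side below and are not independent of each other.

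**Figure D1:**
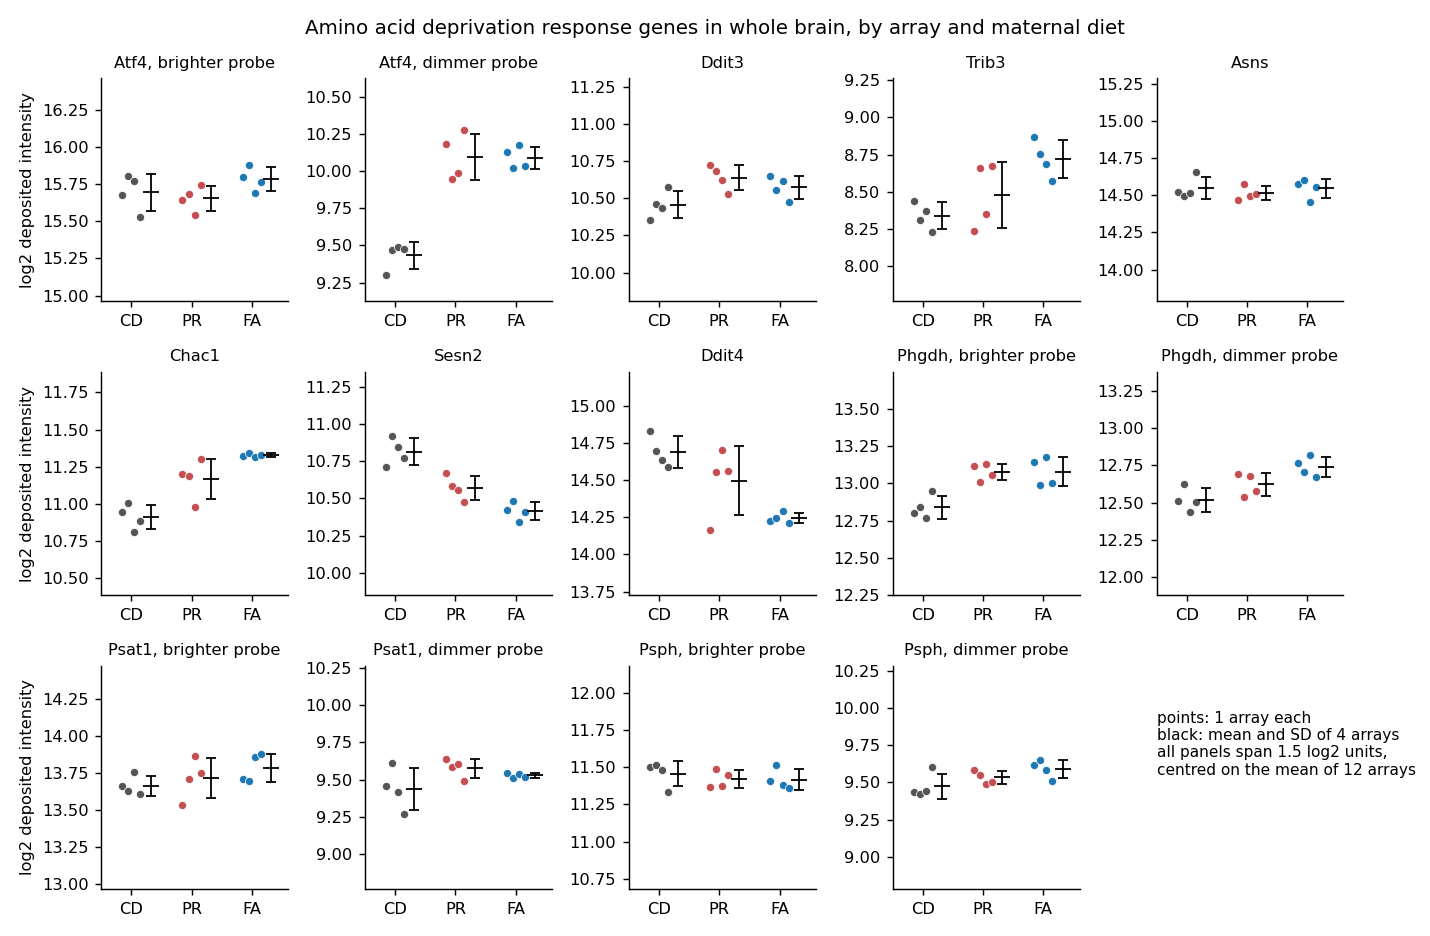
Log2 deposited intensity of the 14 probes (vertical axes, each spanning 1.5 log2 units) by maternal diet group (horizontal axes), 1 point per array with the mean and SD of 4 arrays beside them. The dimmer probe of Atf4 stands apart from the CD group in both protein-restricted groups, Sesn2 lies lower in both, and the 3 groups of Asns overlap.

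Atf4 encodes the transcription factor at the centre of the response. Its 2 probes, called here brighter and dimmer only to tell them apart, gave different results. The dimmer probe (chr15:80086639-80086698 in mm9, + strand, starting at base 504 of the transcript NM_009716) read 9.30, 9.47, 9.49 and 9.48 on the CD arrays, 10.18, 9.95, 9.99 and 10.27 on the PR arrays and 10.13, 10.02, 10.18 and 10.03 on the FA arrays. Every PR and FA array lay above every CD array, and the PR and FA arrays overlapped. Its level was 1.58-fold higher in the PR group (log2 difference 0.66, SE 0.080, limma adjusted p = 0.000224) and 1.58-fold higher in the FA group (0.66, SE 0.080, adjusted p = 0.000203). These were the largest differences among the 14 probes, and both passed under all 14 alternatives tried for each (6 other processings and leaving out each of 8 arrays), with differences from 0.53 to 0.71 in PR and from 0.52 to 0.68 in FA.

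The brighter Atf4 probe (chr15:80087902-80087961, starting at base 1655 of the same transcript) averaged 15.70 ± 0.12 (SD, n = 4) on the CD arrays, 15.66 ± 0.085 on the PR arrays and 15.78 ± 0.078 on the FA arrays. The 3 groups overlapped. Its difference was -0.040 in PR (95% confidence interval -0.20 to 0.12, limma adjusted p = 0.705) and 0.090 in FA (-0.067 to 0.25, adjusted p = 0.359). The intervals of the 2 probes do not meet in either comparison. When the dimmer probe was taken relative to the brighter one within each array, the difference between groups was 0.70 in PR and 0.57 in FA (exact permutation test, two-sided, p = 0.0286 in each, the smallest that 70 permutations can give). Over the 12 such tests made on the 4 genes with 2 probes, the adjusted p was 0.114 for each. The comparison of the probes was added after their values were seen. The files do not say which of the 2 positions stands for Atf4 as a whole.

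Ddit3, which encodes CHOP, a partner of ATF4 that is induced late in the response, did not pass the test in either group. Its probe (chr10:126732518-126732821, a 60-base probe whose target is interrupted by an intron) read 10.35, 10.46, 10.44 and 10.58 on the CD arrays, 10.72, 10.68, 10.62 and 10.53 on the PR arrays and 10.65, 10.55, 10.62 and 10.47 on the FA arrays. In the PR group 3 arrays lay above all CD arrays and 1 lay within their range. The difference was 0.18 in PR (95% confidence interval 0.043 to 0.32, limma adjusted p = 0.0515) and 0.12 in FA (-0.024 to 0.26, adjusted p = 0.182). The adjusted p of the PR difference ran from 0.0242 without CD replicate 4 (0.22) to 0.154 with normexp background correction (0.12). It was also under the threshold without PR replicate 4 (0.22, adjusted p = 0.0346), with 75th percentile scaling (0.0489), with dim probes removed (0.0464) and with another variance model (0.0380).

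Trib3 encodes a pseudokinase that binds ATF4 and restrains it. Its probe (chr2:152163161-152163220 in mm9) read 8.44, 8.31, 8.37 and 8.23 on the CD arrays, 8.23, 8.66, 8.35 and 8.68 on the PR arrays and 8.87, 8.75, 8.69 and 8.57 on the FA arrays. In the PR group 2 arrays lay above the CD range and 2 did not exceed it, and the difference of 0.14 did not pass (95% confidence interval -0.095 to 0.38, limma adjusted p = 0.344). In the FA group all 4 arrays lay above all CD arrays. Trib3 was 1.30-fold higher there (log2 difference 0.38, SE 0.11, adjusted p = 0.0187). That call was lost without FA replicate 1 (0.33, adjusted p = 0.0535) and by the methods' Tukey test (adjusted p = 0.0643).

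Chac1 encodes an enzyme that degrades glutathione and is a direct target of ATF4. Its probe (chr2:119179990-119180049 in mm9) read 10.94, 11.01, 10.81 and 10.88 on the CD arrays, 11.20, 11.19, 10.98 and 11.30 on the PR arrays and 11.32, 11.34, 11.32 and 11.33 on the FA arrays. The FA arrays lay between 11.32 and 11.34, above all CD and PR arrays, while the lowest PR array fell inside the CD range. Chac1 was 1.19-fold higher in PR (log2 difference 0.26, SE 0.068, limma adjusted p = 0.0164) and 1.33-fold higher in FA (0.42, SE 0.068, adjusted p = 0.00106). The PR call was lost with normexp background correction (0.19, adjusted p = 0.0637) and when the PR and CD arrays were fitted alone (adjusted p = 0.0511).

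Asns encodes asparagine synthetase, the enzyme for which the amino acid response element was first worked out, and it passed in neither comparison, with group means of 14.55, 14.51 and 14.55. Its probe (chr6:7625171-7625228 in mm9) read 14.52, 14.50, 14.52 and 14.65 on the CD arrays, 14.47, 14.58, 14.50 and 14.51 on the PR arrays and 14.57, 14.61, 14.45 and 14.56 on the FA arrays. The groups overlapped throughout. The difference was -0.034 in PR (95% confidence interval -0.14 to 0.077, limma adjusted p = 0.640) and -0.00112 in FA (-0.11 to 0.11, adjusted p = 0.989). These intervals leave out the estimated difference of Chac1 in the FA group, 0.42, and that of the dimmer Atf4 probe in both groups. So of the 3 members with the motif in their promoter window, Chac1 rose in both groups, Trib3 in FA, and Asns passed in neither.

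Sesn2 and Ddit4 are both induced by ATF4 and are both brakes on mTORC1. Sesn2 fell in both comparisons and Ddit4 in FA, opposite to Chac1. Sesn2, which encodes a leucine-binding Sestrin, read 10.71, 10.92, 10.85 and 10.77 on the CD arrays, 10.67, 10.58, 10.56 and 10.48 on the PR arrays and 10.42, 10.48, 10.34 and 10.41 on the FA arrays (probe at chr4:132048858-132048917 in mm9). Every PR and FA array lay below every CD array. Sesn2 fell by 15.4% in PR (log2 difference -0.24, SE 0.059, limma adjusted p = 0.0116) and fell by 24.2% in FA (-0.40, SE 0.059, adjusted p = 0.00062), and it passed under all 14 alternatives for each comparison.

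Ddit4 encodes REDD1, which activates the TSC complex and so inhibits mTORC1. Its probe (chr10:59412486-59412545 in mm9) read 14.83, 14.69, 14.64 and 14.59 on the CD arrays, 14.16, 14.56, 14.70 and 14.56 on the PR arrays and 14.23, 14.25, 14.29 and 14.21 on the FA arrays. The FA arrays lay below all CD arrays and close together, while the PR arrays spread from 14.16, below every other array, to 14.70, inside the CD range. Ddit4 fell by 26.6% in FA (log2 difference -0.45, SE 0.10, limma adjusted p = 0.00706), and its PR difference of -0.19 did not pass (95% confidence interval -0.42 to 0.035, adjusted p = 0.184).

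**Figure D2:**
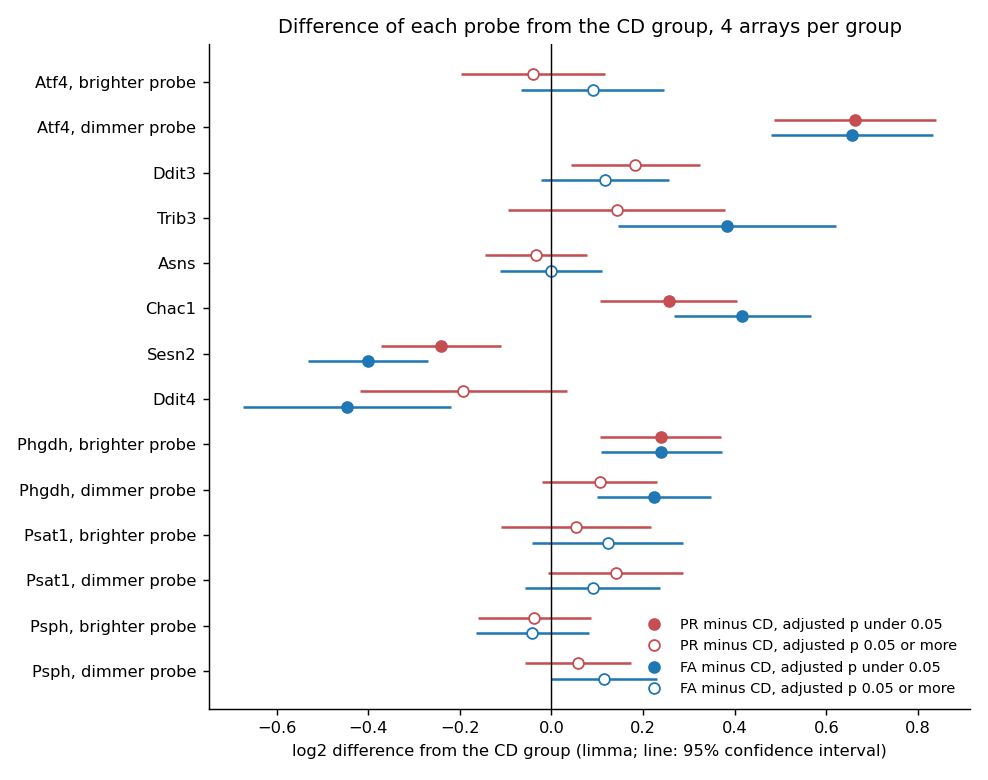
Log2 difference of each of the 14 probes from the CD group (horizontal axis), for PR in red and FA in blue, with 95% confidence intervals from limma on 4 arrays per group. Filled points passed at an adjusted p under 0.05. The dimmer Atf4 probe lies farthest to the right at 0.66 in both groups, and Sesn2 and Ddit4 are the members left of 0 that passed.

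Of the 3 serine synthesis genes, Phgdh passed the test and Psat1 and Psph did not. Phgdh encodes the first enzyme of the pathway, phosphoglycerate dehydrogenase. Its brighter probe (chr3:98117215-98117274 in mm9) read 12.80, 12.84, 12.77 and 12.95 on the CD arrays, 13.12, 13.01, 13.13 and 13.05 on the PR arrays and 13.15, 12.99, 13.18 and 13.00 on the FA arrays. All PR and FA arrays lay above all CD arrays. It was 1.18-fold higher in both (log2 difference 0.24, SE 0.060, limma adjusted p = 0.0130 in PR and 0.0107 in FA). The dimmer probe (chr3:98117303-98117361) read 12.51, 12.62, 12.43 and 12.50 on the CD arrays, 12.69, 12.54, 12.68 and 12.58 on the PR arrays and 12.76, 12.71, 12.82 and 12.67 on the FA arrays. Its PR arrays overlapped the CD arrays and its FA arrays did not. Its difference was 0.11 in PR (adjusted p = 0.187) and 0.22 in FA (adjusted p = 0.0114), so both probes passed in FA and 1 of them in PR.

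Phgdh is expressed mainly by astrocytes in brain, and astrocyte markers were measured beside it. The mean log2 level of 6 markers ranged from 12.78 to 12.85 on the CD arrays, from 12.86 to 12.94 on the PR arrays and from 12.81 to 12.89 on the FA arrays. Among them Gfap was higher (0.43 in PR and 0.32 in FA), Aqp4 was lower (-0.21 and -0.35), Gja1 was higher in PR, and Aldh1l1, Slc1a2 and Slc1a3 did not pass on their brightest probe. Their part in the Phgdh difference was not tested.

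Psat1 and Psph, which encode phosphoserine aminotransferase and phosphoserine phosphatase, the enzymes of the later steps, did not pass with any of their 4 probes. The brighter Psat1 probe (chr19:15979622-15979681 in mm9) averaged 13.66 ± 0.066 (SD, n = 4) on the CD arrays, 13.71 ± 0.14 on the PR arrays and 13.78 ± 0.096 on the FA arrays, with overlap between all of them. The dimmer one (chr19:15991586-15991645) averaged 9.44 ± 0.14, 9.58 ± 0.064 and 9.53 ± 0.018, and it may also take RNA of predicted copies that the array design lists for it. The brighter Psph probe (chr5:130271441-130271500) averaged 11.46 ± 0.086, 11.42 ± 0.060 and 11.42 ± 0.070, and the dimmer one (chr5:130272308-130272367) 9.48 ± 0.084, 9.53 ± 0.043 and 9.59 ± 0.062. Over these 4 probes the differences ran from -0.037 to 0.14 in PR and from -0.042 to 0.12 in FA. The 95% confidence intervals reached no farther than 0.29 in either comparison, so a rise as large as that of the dimmer Atf4 probe lies outside them. A rise of 0.24, as in the brighter Phgdh probe, lies inside the interval of the dimmer Psat1 probe in PR (-0.0071 to 0.29). It also lies inside that of the brighter Psat1 probe in FA (-0.042 to 0.29), while the intervals of Psph stayed below it.

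The folic acid supplement was addressed by FA against PR, where the maternal diets differed in folic acid and the slides differed as well. By limma, 0 of the 14 probes passed, where 242 of all probes (0.614%) did. At an unadjusted p under 0.05 there were 4 member probes by limma and 1 by the methods' Tukey test, against 14.1% of all probes by limma, and Tukey's test also gave 0 after adjustment. The 4 were Trib3 (log2 difference 0.24, adjusted p = 0.347), Chac1 (0.16, adjusted p = 0.319), Sesn2 (-0.16, adjusted p = 0.259) and Ddit4 (-0.25, adjusted p = 0.295). Each of them stood farther from the CD mean in FA than in PR, and Chac1 was the member whose FA and PR arrays did not overlap, where 11.1% of all probes did not. For the dimmer Atf4 probe the FA minus PR difference was -0.0066 (95% confidence interval -0.18 to 0.17) and for the brighter Phgdh probe 0.00153 (-0.13 to 0.13).

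Scaling decided how the brightest members were read. When the scanner's processed signals were set against each array's 75th percentile, in place of the authors' normalization, the 2155 probes with a mean level of 14 or more had a median difference of -0.15 in PR against CD and -0.12 in FA against CD. The medians of the same probes in the deposited values were 0.0056 and 0.011. Asns, Ddit4 and the brighter Atf4 probe belong to these bright probes. In PR they then passed as lower, at -0.18 (limma adjusted p = 0.0304), -0.33 (adjusted p = 0.0280) and -0.21 (adjusted p = 0.0405). These values stand beside the median of -0.15 for probes of that level. Ddit3 also passed, as higher (0.19, adjusted p = 0.0489), so that 8 member probes were called in PR, 4 higher and 4 lower, against 4 with the deposited values. Of all probes, 37.3% were called with this scaling in PR and 39.6% in FA, against 30.0% and 34.4% with the deposited values. In FA the count of member probes stayed at 7, although the brighter Atf4 probe turned from 0.090 to -0.053 without passing. The dimmer Atf4 probe, Chac1, Sesn2 and the brighter Phgdh probe kept their direction and their call in both comparisons.

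**Figure D3:**
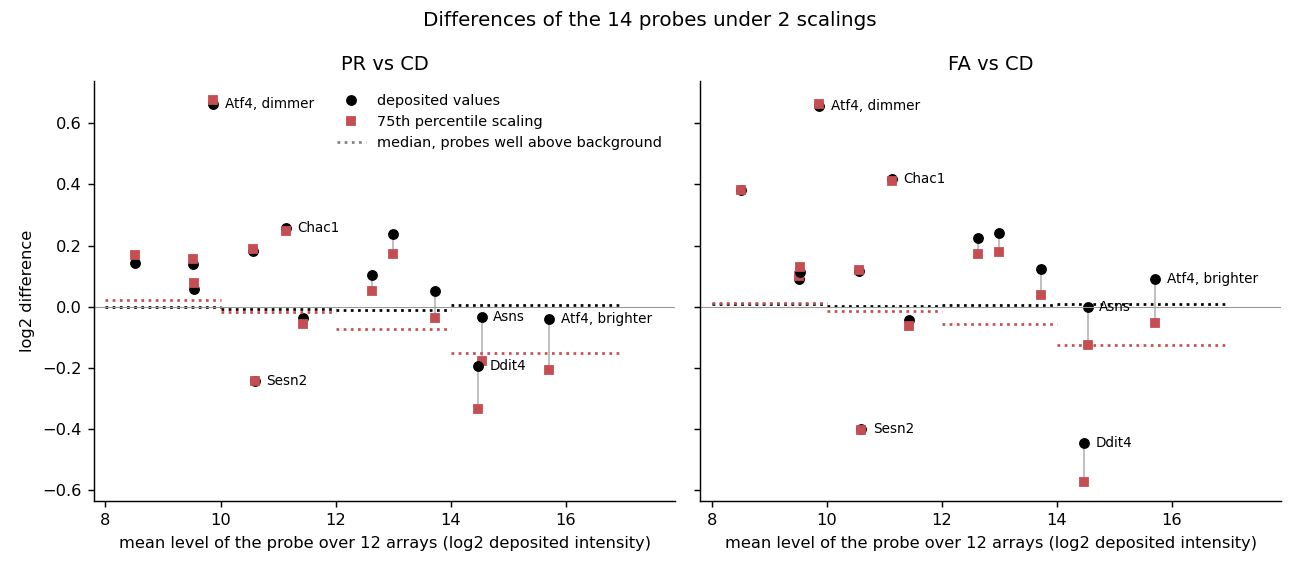
Log2 difference (vertical axis) against the mean level of each of the 14 probes over 12 arrays (horizontal axis, log2 deposited intensity), with deposited values as black circles and 75th percentile scaling as red squares. Dotted lines give the median of all probes well above background on all arrays at that level. Above a level of 14 the red median drops to -0.15 in PR and -0.12 in FA and the bright members drop with it, while members below 12 hardly move.

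The rest of the pathway was followed in 6 lists of other genes. Of 104 genes tested, 34 differed between PR and CD (23 higher, 11 lower) and 50 between FA and CD (31 higher, 19 lower). These shares, 32.7% and 48.1%, stand beside 30.0% and 34.4% of all probes. The split was 22 higher and 19 lower in PR and 26 higher and 26 lower in FA with 75th percentile scaling. For this and the rescaled counts of single lists below, 37.3% of all probes were called with that scaling in PR and 39.6% in FA. With normexp background correction 21.1% and 27.6% of all probes were called. Between FA and PR limma called 0 of the 104, with 20 at an unadjusted p under 0.05, and Tukey's test called 0 with 14. Nprl2 and Nprl3 were not matched on the array.

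Among the eIF2 alpha kinases and their partners, 1 of 11 genes was higher and 3 were lower in PR, and 2 were higher and 4 lower in FA. These were 36.4% and 54.5% of the list, where 30.0% and 34.4% of all probes were called. Eif2ak4, which encodes GCN2, the sensor of uncharged transfer RNA, had a difference of -0.00179 in PR and -0.042 in FA and passed in neither. Ppp1r15b, which encodes a constitutive eIF2 alpha phosphatase subunit, fell by 0.27 on the log2 scale in PR (limma adjusted p = 0.0179) and by 0.36 in FA (adjusted p = 0.00333). Dnajc3, an inhibitor of eIF2 alpha kinases, rose by 0.42 in PR (adjusted p = 0.0050) and did not pass in FA (0.23, adjusted p = 0.0681). Eif2ak3, which encodes the kinase PERK, fell by 0.19 in PR (adjusted p = 0.0366) and by 0.27 in FA (adjusted p = 0.00579).

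Among other partners and targets of ATF4, 3 of 27 genes were higher and 4 lower in PR, and 7 were higher and 5 lower in FA. They made up 25.9% and 44.4% of the list, beside 30.0% and 34.4% of all probes. With 75th percentile scaling the list was split 5 higher and 7 lower in PR and 6 higher and 8 lower in FA, and with normexp background correction 5 higher and 6 lower in FA. Atf3, a stress-induced repressor that ATF4 raises, ranged from 7.82 to 7.91 on the CD arrays, from 6.88 to 7.31 on the PR arrays and from 6.95 to 7.11 on the FA arrays. Its arrays did not overlap with CD in either group, and it fell by 0.79 in PR (limma adjusted p = 0.00019) and by 0.81 in FA (adjusted p = 0.000152). Cebpb, which encodes a dimer partner of ATF4, fell by 0.34 and by 0.47.

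Downstream of the synthesis enzymes, 3 of 11 genes of serine and glycine use were called in each comparison, all of them higher. This share, 27.3%, stands beside 30.0% of all probes in PR and 34.4% in FA. The 3 genes were Amt and Dld of the glycine cleavage system and Sptlc1, which encodes a subunit of the serine palmitoyltransferase that starts sphingolipid synthesis. Sptlc1 rose by 0.31 in PR (limma adjusted p = 0.000549) and by 0.44 in FA (adjusted p = 8.7e-05), and Dld rose by 0.33 and 0.44. With 75th percentile scaling this list was split 3 higher and 0 lower in PR and 4 higher and 1 lower in FA. With normexp background correction it had 5 higher and 0 lower in each comparison. Of the 20 cytosolic aminoacyl-tRNA synthetases, which charge transfer RNAs, 5 were higher and 1 lower in PR, and 9 were higher and 1 lower in FA. In PR the share called was 30.0%, the same as that of all probes. In FA 10 of the 20 were called, where 34.4% of all probes were. Mars1 rose by 0.29 in PR (adjusted p = 0.00102) and by 0.46 in FA (adjusted p = 7.9e-05), and Farsa rose by 0.21 and 0.29. With 75th percentile scaling the synthetases were split 4 higher and 3 lower in PR and 6 higher and 2 lower in FA.

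Among 19 genes of nutrient sensing by mTORC1, 7 were higher and 3 lower in PR, and 8 were higher and 7 lower in FA. The share called was 52.6% in PR and 78.9% in FA, where 30.0% and 34.4% of all probes were called. With 75th percentile scaling the list was split 8 higher and 5 lower in each comparison. With normexp background correction it was split 9 higher and 4 lower in PR and 7 higher and 5 lower in FA. Wdr24, which encodes a subunit of the GATOR2 complex that Sestrins bind, ranged from 10.98 to 11.30 on the CD arrays, from 11.70 to 11.82 on the PR arrays and from 11.83 to 11.90 on the FA arrays, with both groups above all CD arrays. It rose by 0.61 in PR (limma adjusted p = 0.000135) and by 0.69 in FA (adjusted p = 7.7e-05). Castor1, which encodes an arginine sensor that also binds GATOR2, rose by 0.71 and 0.92. Its level was low, from 5.68 to 5.94 on the CD arrays, 6.40 to 6.76 on the PR arrays and 6.61 to 6.92 on the FA arrays. The probe was well above background on all 12 arrays. In the endoplasmic reticulum stress list, 4 of 16 genes were higher in PR, and 2 were higher and 2 lower in FA. That was 25.0% of the list in each comparison, below the share of all probes. Atf6, a sensor of misfolded protein, rose by 0.29 in PR (adjusted p = 0.0133) and 0.32 in FA (adjusted p = 0.00686), Pdia6 rose by 0.20 in PR, and Sdf2l1 fell by 0.37 in FA. This list had, with 75th percentile scaling, 1 gene higher and 1 lower in PR and 1 higher and 5 lower in FA.

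**Figure D4:**
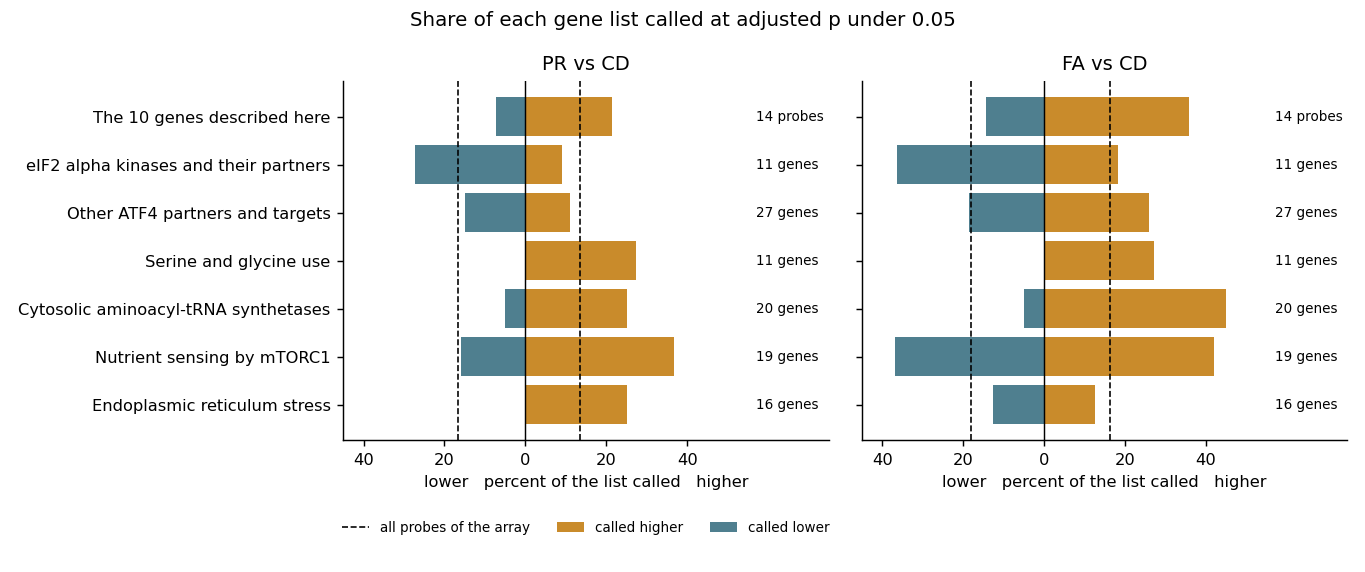
Share of the 14 member probes and of each of 6 pathway lists called higher (right) or lower (left) at an adjusted p under 0.05, in PR against CD and FA against CD; dashed lines give the shares over all probes of the array. The synthetase and mTORC1 lists reach farthest right in FA, at 9 of 20 and 8 of 19 genes. With these deposited values the serine list has no gene called lower.

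Markers of other cell types were read beside the share of all probes called, 30.0% in PR and 34.4% in FA. Of 4 endothelial markers, 3 were higher in PR and 3 in FA, and their mean log2 level was 11.08 to 11.23 on the CD arrays, 11.39 to 11.57 on the PR arrays and 11.38 to 11.54 on the FA arrays. Of 4 microglial markers, 1 was lower in PR and 2 in FA, with means of 11.62 in CD, 11.47 in PR and 11.50 in FA. Of 4 neuron markers, 1 was higher and 1 lower in PR and 1 was higher in FA, and 1 of 4 oligodendrocyte markers was higher in each. Of 5 pituitary markers, Gh and Prl were lower in both groups; they were well above background on 5 of 12 arrays each. No choroid plexus, red blood cell or skeletal muscle marker passed, and the liver markers Alb and Apoa1 were not well above background on any array. The part of these cell types in the differences of the 10 members and of the lists was not tested.

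Variation of the members among themselves was examined within groups. After subtraction of each group's mean, Pearson's r was computed for the 45 pairs of the 10 genes over 12 arrays, on the brightest probe of each gene, and tested with 13824 exact permutations of arrays within groups. By this exact permutation test 0 pairs passed the adjustment over 45 by Pearson's r and 0 by Spearman's rho, with 5 pairs at an unadjusted p under 0.05. With 75th percentile scaling 0 pairs passed and 3 were under 0.05 unadjusted. The values ran from -0.69 to 0.82, 17 positive and 28 negative, with a median of -0.093. The highest was Atf4 with Psph (r = 0.82, exact permutation p = 0.00694, adjusted 0.313, Spearman's rho 0.74, exact permutation p = 0.0158, adjusted 0.407), and r was 0.68 without the 2 arrays farthest from the median of Atf4. Between 2 probes of 1 gene the same r, as a description, was 0.68 for Phgdh, 0.15 for Atf4, -0.0997 for Psat1 and -0.26 for Psph.

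The genes most like 3 of the members in this variation within groups are given as a description, out of 23752 probes searched over 12 arrays (23751 for Phgdh). They were Rgs9 (0.95), Gnaq (0.93) and Negr1 (0.92) for Asns, and Nrtn (0.96), Timp2 (0.95) and LOC637711 (0.94) for Phgdh. For Ddit4 they were Cebpd (0.97), Sqrdl (0.95) and Lypd6b (0.95). These values were not computed again without the arrays farthest from the median, and single arrays can weigh on them. Among the members, leaving out the 2 arrays farthest from the median of Ddit4 moved its r with Psat1 from 0.68 to 0.080. With Psph it moved from 0.34 to 0.57, and with Phgdh from -0.14 to -0.26.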

How the data were processed

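RNA from 12 whole brains, 4 per maternal diet, was labelled with Cy3 and hybridised to 1-colour Agilent 4x44K mouse arrays. The arrays were scanned, and the software Feature Extraction 11.0.1.1 read the images (per the file headers, which name mm9). Its values and flags are called the scanner's in this text. The deposited table holds intensity values that the authors had normalized between arrays with qspline, and the scanner files deposited with it hold each spot's processed and raw intensity. The 11 methylation samples of the series were not analysed here.

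Here log2 of the deposited intensity, 1 value per probe and array, was fitted with limma 3.58.1 in R 4.3.3, with the 3 groups in 1 fit and Benjamini-Hochberg adjustment over 39429 probes. Where the scanner's processed or raw signals were used, they were averaged over the spots of a probe before the log2. A probe counted as called at an adjusted p under 0.05. "Well above background" is the scanner's own flag. In the pathway lists, the probe with the highest mean stood for a gene. Other probes of a gene did not always give the same result. A gene of the endoplasmic reticulum stress list counted as higher in PR had another probe called lower. An ATF4 target counted as lower in FA had another probe called higher. Some genes that were not counted had another probe that passed. All member probes were named, and from each list the 2 genes with the lowest adjusted p in each comparison with CD; other names are background, markers or were chosen after their values were seen. The members and lists were chosen with earlier results of these data known. The result of 1 gene of the lists is not reported here by name. Promoter windows were those of RefSeq (GRCm38.p6); positions of probes within exons or UTRs were not examined.

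Alternatives were 75th percentile scaling, quantile normalization, normexp (offset 50), removal of outlier spots or dim probes, a replicate block, another variance model, fits of 2 groups, and leaving out each array. The methods' Tukey test was also run, at an adjusted p under 0.05. The methods' limits (at least 2-fold, adjusted p under 0.0001) were applied to the limma fit. The fit was tested on simulated data. Same-numbered arrays of different groups had correlations of their deviations from -0.063 to 0.20, with a median of 0.030. Other pairs of arrays from different groups ran from -0.22 to 0.18, with a median of -0.022. Replicate numbers were not treated as pairs in the main fit. With 4 arrays per group, the number of arrays limits the precision.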

Additional observations from a re-analysis of the deposited data

Results flagged for a closer look

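A value far from the other 3 of its group was found in 3 of 42 groups of 4 arrays, where chance gives about 1 in 20, and all 3 lay in the CD group. The dimmer Atf4 probe read 9.30 in CD replicate 1, below the other 3 arrays at 9.47 to 9.49. Asns read 14.65 in CD replicate 4, above the others at 14.50 to 14.52. The dimmer Psph probe read 9.60 in CD replicate 4, above the others at 9.42 to 9.44. Without CD replicate 1 the dimmer Atf4 probe still passed in both comparisons.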

How the results depend on the processing

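The direction and the side of the threshold were the same in 555 of 588 checks of a single probe, over 6 other processings and leaving out each array. Among these, calls were lost in 2 (Chac1 in PR with normexp, Trib3 in FA without FA replicate 1) and gained in 11. Outside them, the fit of only the 2 groups compared called 3 member probes in PR, 2 higher and 1 lower, without Chac1 (adjusted p = 0.0511), and Tukey's test lost Trib3 in FA (adjusted p = 0.0643). With 75th percentile scaling 8 member probes were called in PR, where 37.3% of all probes were. By limma at the methods' limits of 2-fold and adjusted p under 0.0001, 0 member probes were called in PR and 0 in FA. Of all probes, limma called 34 and 77 at these limits. At adjusted p under 0.05, limma called 4 and 7 member probes and Tukey's test 4 and 6. Leaving out 1 array gave 4 to 5 calls in PR, 6 to 8 in FA and 0 in FA against PR. With the replicate block the counts were 4, 7 and 0, and no member call changed, while the calls over all probes in FA against PR went from 242 to 11. Over all probes the share of calls that were higher was 44.7% in PR and 55.1% with normexp or 55.5% without dim probes, and in FA against PR 37.2% and 16.5% with 75th percentile scaling. The sign turned in 20 checks, all of them of differences that did not pass. With 75th percentile scaling these were the brighter Psat1 probe in PR (-0.038) and the brighter Atf4 probe in FA (-0.053), with normexp the brighter Atf4 probe in FA (-0.061) and the brighter Phgdh probe in FA against PR (-0.00245), and with quantile normalization Asns in FA (0.0096). Leaving out 1 array moved Asns from -0.055 to 0.00138 in PR and from -0.021 to 0.034 in FA. In FA against PR it moved the dimmer Atf4 probe from -0.056 to 0.052, the brighter Phgdh probe from -0.031 to 0.031 and the brighter Psph probe from -0.038 to 0.019. The cause was not tested.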
